A study of Rattus norvegicus with 14 samples.

Results

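Membrane carriers of the SLC gene families that move amino acids, peptides, vitamins, nucleosides and related small solutes were followed in the small intestine of rats aged 20 days. They are the genes whose symbol in the platform annotation belongs to the families Slc1a, Slc6a, Slc7a, Slc15a, Slc16a, Slc19a, Slc22a, Slc23a, Slc28a, Slc29a, Slc36a or Slc38a, together with Slc3a1. The array carried 53 such genes, each on 1 probe, of 4156 genes with a symbol, and no Slc36a gene was among them. Perfusion was with HG or HF. What is known of the study reads these abbreviations, unexplained in the labels, as high glucose and high fructose. Arrays of 2 colours set HF against HG after 4 h (5 pairs of samples, arrays 1 to 5) and after 20 min (4 pairs). On 3 further arrays both channels held the same RNA (1HG, 3HG or 3HF), which is RNA of the 4 h perfusion and bears the names of samples in pairs 1 and 3. A sixth array at 4 h repeated pair 2, and 1 array held only the kit's labelling primers. Strain, sex and the number of animals per sample are not given in the labels, and every intestine sample analysed here had received HG or HF. Each array gives a ratio of its 2 channels and no level, so neither the abundance of a carrier nor the presence of gut markers can be read from it.

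Proteins in the diet are cut by peptidases in the lumen and at the brush border, and enterocytes take up the products as short peptides, driven by protons, and as free amino acids, mostly driven by sodium. Exchangers and facilitated carriers of the basolateral membrane then pass amino acids to the blood. Folate, ascorbate and nucleosides have carriers of their own. Glucose and fructose enter through the separate Slc5a and Slc2a families, so the carriers described here do not transport either sugar under test.

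All values are treated as log2 ratios, centred on the median of their array, and the base is an assumption. Positive values probably lie on the HF side, meaning more RNA after HF. This direction rests on array 6, where the title attaches the digit 5 to HG and 3 to HF, taken to stand for the dyes Cy5 and Cy3. Slc2a5, the fructose carrier that fructose is known to induce, averaged 1.65 ± 0.25 (SD, n = 5) on arrays 1 to 5 and was -1.66 on array 6. Array 6 was therefore left out of the tests and is given separately. SDs over all probes were 0.33 to 0.40 on the 4 h and 20 min arrays, against 0.30, 0.35 and 1.39 on the same-RNA arrays 3HF, 3HG and 1HG. On 1HG 217 features lay beyond 2 in size, none of them a carrier of the 53. Differences were tested with limma in a single fit of the 12 arrays over 4682 features, with p-values adjusted over all of them. Nothing in the labels says that the pairs came from different animals, so these p-values measure the spread between arrays. In whole tissue, fewer cells of a type and less RNA per cell cannot be told apart.

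None of the 53 carriers passed an adjusted p below 0.05 in limma in any of the 3 comparisons. Against the same-RNA arrays, 0 passed at 4 h, where 0.0641% of all features did, and 0 at 20 min, where 0.0427% did. For 4 h against 20 min 0 passed, with 0.598% of all features called. At an unadjusted p below 0.05 there were 4 carriers at 4 h (9.97% of all features), 5 at 20 min (5.21%) and 8 for 4 h against 20 min (13.5%). Groups did not overlap for 2 carriers at 4 h (6.71% of all features), 6 at 20 min (7.01%) and 3 between the times (6.54%). As shares of the 53 the counts by unadjusted p are 7.55%, 9.43% and 15.1%, and those of groups without overlap 3.77%, 11.3% and 5.66%. The median difference of the 53 was -0.02 at 4 h, 0.00 at 20 min and -0.03 between the times, beside -0.01, 0.00 and -0.01 over all features. The difference lay above 0 for 23 carriers at 4 h (48.5% of all features), 27 at 20 min (50.6%) and 21 between the times (48.0%). In each comparison the 95% interval of 49 of the 53 lay within 1 of 0, a 2-fold change, as it did for 90.7% of all features at 4 h, 91.3% at 20 min and 92.6% between the times. It lay within 0.5 of 0 for 31 carriers at 4 h (55.8% of all features), 27 at 20 min (57.3%) and 33 between the times (59.3%). Those intervals are not adjusted for the number of genes.

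**Figure D1:**
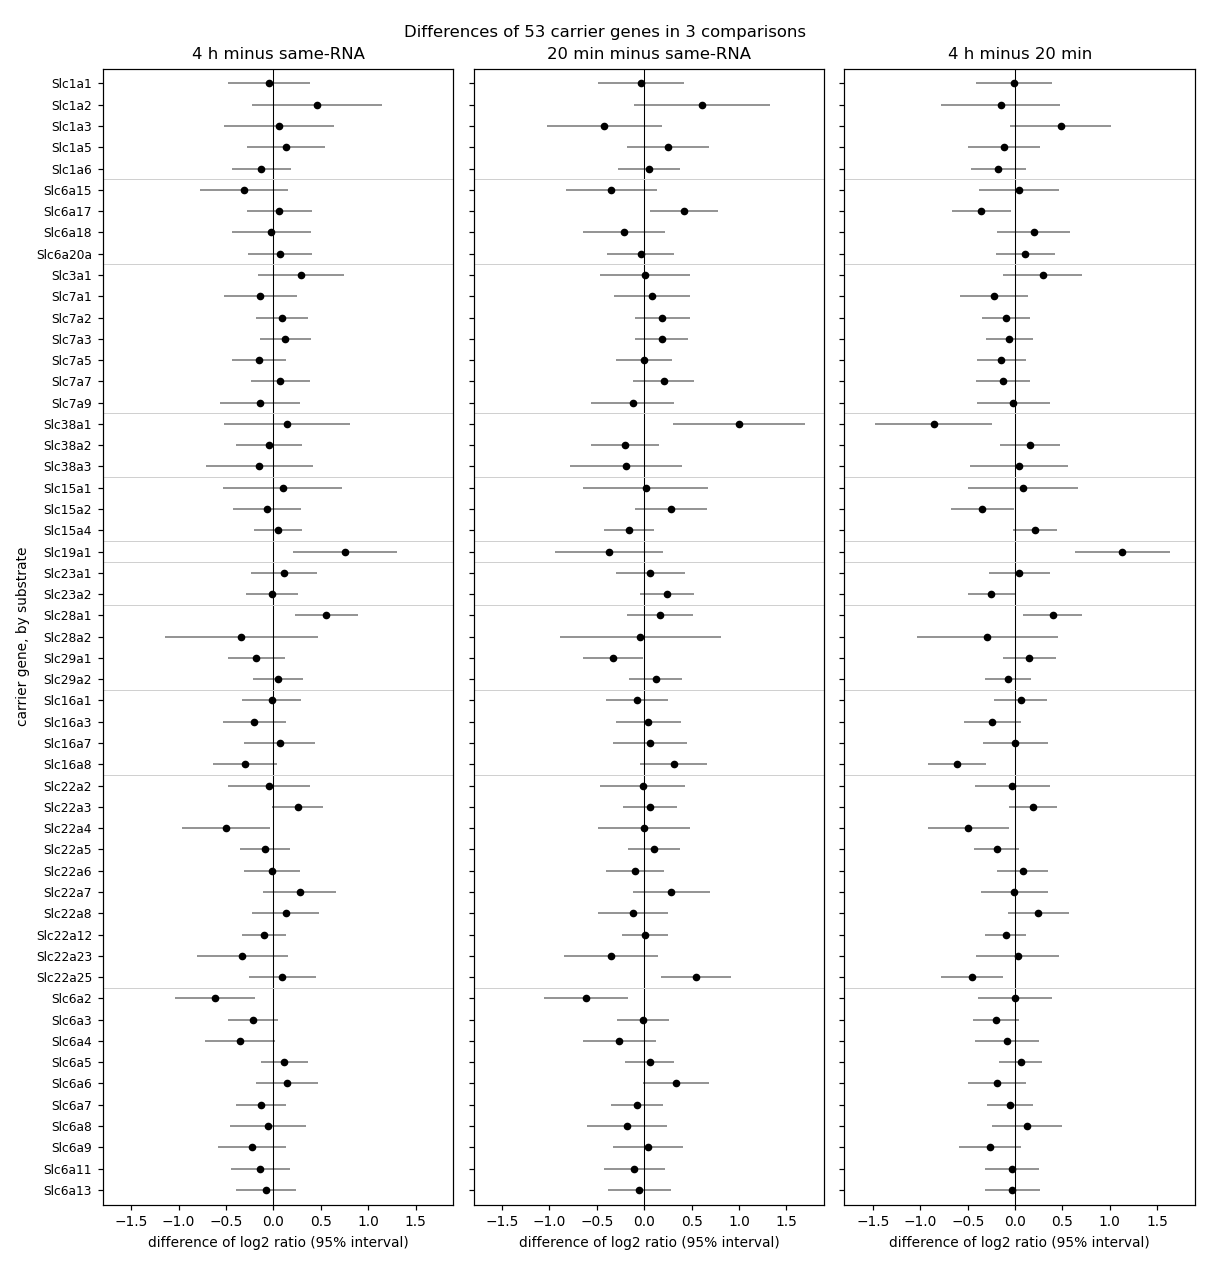
Differences of the log2 ratio for the 53 carrier genes (rows, grouped by substrate) at 4 h and at 20 min against the same-RNA arrays and between the times, as points with the 95% interval of the limma fit. Slc19a1 stands furthest to the right between the times (1.13) and Slc38a1 furthest to the left (-0.86).

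Folate had 1 carrier on the array, Slc19a1, the reduced folate carrier, and it had the smallest p of the 53 between the times. Its ratios were 0.78, 0.69, 0.74, 0.07 and 1.52 on the 5 arrays at 4 h, against -0.07, -0.69, -0.40 and -0.33 on the 4 arrays at 20 min. On the same-RNA arrays 1HG, 3HG and 3HF they were 0.13, -0.06 and -0.06. Every 4 h array lay above every 20 min array, and the lowest of the 4 h arrays, array 4, lay inside the range of the same-RNA arrays. All 4 arrays at 20 min lay below all 3 same-RNA arrays, as in 3.44% of all features. The margin was small, with the nearest values at -0.066 and -0.061. All 5 ratios were on the HF side at 4 h and all 4 on the HG side at 20 min, a pattern held by 0.769% of all features. The difference of 4 h from 20 min was 1.13 ± 0.23 (SE; 2.19-fold; 95% interval 0.63 to 1.64; limma adjusted p = 0.057), which ranked 30 among the 4682 features by p and did not pass. Over 19 alternatives the adjusted p ran from 0.0201 to 0.282 and was below 0.05 in 5. These were array weights (0.0325), trended and robust moderation (0.0348), a fit of these groups alone (0.0354), and the fits without 4 h replicate 4 (0.0201) or 5 (0.0444). The difference itself stayed between 0.94 and 1.42. Against the same-RNA arrays Slc19a1 differed by 0.76 ± 0.25 at 4 h (SE; adjusted p = 0.358) and by -0.37 ± 0.26 at 20 min (adjusted p = 0.867). On array 6 its ratio was -0.86, of the opposite sign to arrays 1 to 5, and on the primer array it was 0.07.

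The upstream sequence of Slc19a1 is shown because this carrier had the largest difference between the times, and that of Slc38a1 because its mean ratio was the largest of the 53 in each of the 3 groups of arrays. Both are the 250 bases before the gene start in RefSeq (GRCr8), written 5′ to 3′ on the strand of the gene. Capitals mark a match to CACGTG, the core that carbohydrate response factors bind in pairs, or to TGATGNAA, a form of the amino acid response element.
Slc19a1, chr20:11600937-11601186, minus strand: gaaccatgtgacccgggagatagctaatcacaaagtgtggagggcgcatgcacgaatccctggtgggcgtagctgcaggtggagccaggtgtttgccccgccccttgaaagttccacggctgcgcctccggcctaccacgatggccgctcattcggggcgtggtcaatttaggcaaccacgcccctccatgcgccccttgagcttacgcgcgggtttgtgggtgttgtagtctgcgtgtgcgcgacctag
Slc38a1, chr7:129681402-129681651, minus strand: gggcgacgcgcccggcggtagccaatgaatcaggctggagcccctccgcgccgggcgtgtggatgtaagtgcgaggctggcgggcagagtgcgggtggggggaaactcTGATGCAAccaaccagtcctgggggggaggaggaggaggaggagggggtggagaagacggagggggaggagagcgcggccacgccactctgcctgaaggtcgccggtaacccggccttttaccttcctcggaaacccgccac
The Slc19a1 window held neither run of letters on either strand, and the Slc38a1 window held 1 match to TGATGNAA, at position -142 if the last base of the window is -1. The reference table held a promoter for 43 of the 53 genes. CACGTG was found in 4 of the 43 (9.30%), Slc16a1, Slc1a6, Slc29a2 and Slc7a5, against 5.79% of all 27457 promoter windows of that length. TGATGNAA was found in 2 (4.65%), Slc38a1 and Slc7a1, against 3.27% of all. Both strands were searched, no window of the 43 held both motifs, and a match is a description of the sequence alone.

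Ascorbate was covered by both of its sodium-coupled carriers, Slc23a1 of intestinal and renal epithelium and Slc23a2 of most other tissues. Slc23a1 had ratios of 0.32, 0.71, 0.61, 0.22 and 0.71 at 4 h, 0.63, 0.68, 0.15 and 0.41 at 20 min and 0.57, 0.22 and 0.42 on the same-RNA arrays. It lay above 0 on all 12 arrays and the groups overlapped throughout, with differences of 0.11 at 4 h (95% interval -0.24 to 0.46) and 0.06 at 20 min (-0.30 to 0.43). Both changed sign in some alternatives, the first among others with the arrays scaled to 1 spread. For Slc23a2 the ratios were -0.03, -0.39, -0.09, -0.35 and -0.15 at 4 h, 0.27, 0.11, -0.09 and -0.10 at 20 min and -0.07, -0.35 and -0.16 on the same-RNA arrays. The 4 h and 20 min arrays overlapped, and the difference between them was -0.25 ± 0.12 (SE; limma adjusted p = 0.373).

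Nucleoside uptake at the brush border runs through Slc28a1, which prefers pyrimidines, and Slc28a2, which prefers purines, while Slc29a1 and Slc29a2 let nucleosides move down their gradient. Slc28a1 had ratios of 0.06, 0.17, 0.21, -0.03 and 0.29 at 4 h, against -0.09, -0.30, -0.20 and -0.44 at 20 min. The same-RNA arrays gave -0.85, -0.19 and -0.22. All 5 arrays at 4 h lay above all 4 at 20 min and above all 3 same-RNA arrays. Groups with 4 h higher did not overlap in 3.42% of all features in the first case and 3.31% in the second. The difference at 4 h was 0.56 ± 0.15 (SE; 1.47-fold; 95% interval 0.23 to 0.89; limma adjusted p = 0.256), and 0.34 without the same-RNA array 1HG. Between the times it was 0.40 ± 0.14 (SE; adjusted p = 0.235). On array 6 the ratio of Slc28a1 was 0.20, of the same sign as the mean of arrays 1 to 5 (0.14).

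Slc28a2 was the least repeatable carrier at 4 h. Its ratios were 0.75, -0.63, 0.07, -1.49 and 0.09 on arrays 1 to 5, with an SD of 0.85 where the median SD of the 53 was 0.22, while at 20 min they were 0.10, 0.11, -0.01 and 0.01. The same-RNA arrays gave 0.19, -0.02 and 0.12. Array 4 held the low value, and without it the difference at 4 h was -0.02 in place of -0.34 (95% interval -1.15 to 0.47). Slc29a1 had ratios of -0.17, 0.17, 0.07, 0.00 and 0.09 at 4 h, -0.02, 0.02, -0.26 and -0.21 at 20 min and -0.02, 0.10 and 0.56 on the same-RNA arrays. At 20 min it differed from the same-RNA arrays by -0.33 ± 0.14 (SE; limma adjusted p = 0.801), and by -0.16 without the array 3HF. Slc29a2 differed by 0.05 at 4 h and 0.12 at 20 min.

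**Figure D2:**
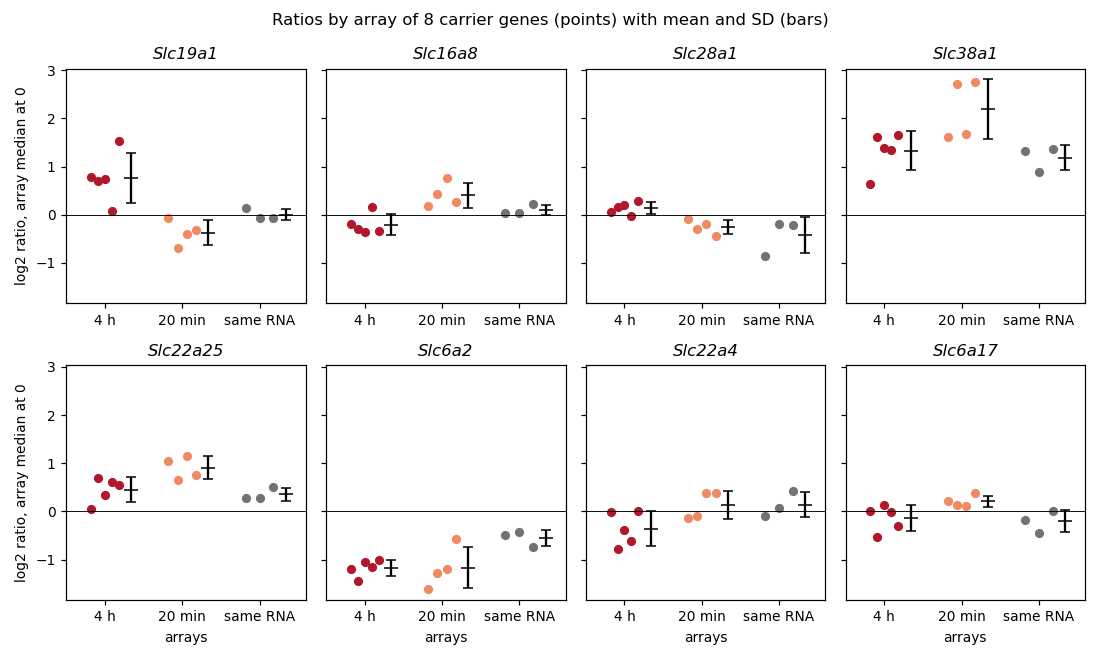
Log2 ratio (array median at 0) of 8 carrier genes on each 4 h, 20 min and same-RNA array (points), with the mean and SD of each group (bars). For Slc19a1 and Slc28a1 all 4 h points lie above all 20 min points, and for Slc16a8 all lie below.

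Peptide carriers numbered 3. Slc15a1, the proton-coupled carrier of di- and tripeptides at the brush border, had ratios of 0.50, -0.52, -0.47, -0.63 and 0.16 at 4 h and -0.51, -0.27, -0.68 and 0.35 at 20 min. On the same-RNA arrays it had -0.04, -0.55 and -0.28. The signs were mixed at both times, and differences were 0.10 at 4 h (95% interval -0.53 to 0.73) and 0.01 at 20 min (-0.64 to 0.67). The first was -0.07 without 4 h replicate 1, and both changed sign in some alternatives. Slc15a2, the high-affinity form known from kidney, had ratios of -0.08, -0.45, -0.39, 0.33 and -0.09 at 4 h, 0.13, 0.02, 0.27 and 0.41 at 20 min and 0.04, -0.12 and -0.14 on the same-RNA arrays. Array 4 was the 1 array at 4 h above 0, all 4 at 20 min were above 0, and the difference between the times was -0.35 ± 0.15 (SE; limma adjusted p = 0.343). Slc15a4, a peptide and histidine carrier of lysosomes, had ratios of -0.02, -0.06, 0.04, -0.17 and -0.10 at 4 h, -0.17, -0.16, -0.38 and -0.38 at 20 min and -0.39, 0.02 and 0.04 on the same-RNA arrays. Its difference between the times was 0.21 ± 0.11 (SE; adjusted p = 0.428). Its ratio of 0.68 on the primer array was the largest of the 53 there.

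Acidic and neutral amino acids are carried with sodium by the Slc1a family, of which 5 members were measured. Slc1a1, which takes up glutamate and aspartate at the brush border, had ratios of 0.39, -0.30, -0.41, 0.27 and 0.08 at 4 h and -0.31, 0.04, 0.33 and 0.03 at 20 min. The same-RNA arrays gave -0.17, 0.10 and 0.22. The groups overlapped, and the differences were -0.04 at 4 h (95% interval -0.48 to 0.39) and -0.03 at 20 min (-0.48 to 0.42). Slc1a2, the main glutamate carrier of astrocytes, had ratios of 0.14, 0.40, -0.01, 0.10 and -0.30 at 4 h, 0.52, -0.07, 0.40 and 0.02 at 20 min and -1.41, 0.22 and 0.01 on the same-RNA arrays. Its differences of 0.46 and 0.61 rested on the array 1HG, without which they were -0.05 and 0.10. Slc1a3, another glial glutamate carrier, had ratios of -0.38, -0.61, 0.11, -0.34 and 0.06 at 4 h, -1.23, -0.72, -0.91 and 0.00 at 20 min and 0.09, -0.33 and -0.63 on the same-RNA arrays. Its 20 min arrays spread from -1.23 to 0.00, and the difference between the times was 0.48 ± 0.24 (SE; limma adjusted p = 0.418). The value of 20 min array 4 was exactly 0 before centring, and whether it was measured is not known. Those of 20 min arrays 1 to 3 were -0.72 or lower. Slc1a5, which exchanges glutamine and other neutral amino acids, lay above 0 on all 12 arrays, with means of 0.65 ± 0.31 at 4 h (SD, n = 5), 0.77 ± 0.30 at 20 min (n = 4) and 0.52 ± 0.10 on the same-RNA arrays (n = 3). Slc1a6, known from cerebellar neurons, differed by -0.13 at 4 h and 0.05 at 20 min.

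Sodium-coupled carriers of neutral amino acids in the Slc6a family were measured in 4 cases. Slc6a20a, the imino acid carrier of the brush border, had ratios of -0.29, 0.06, 0.35, -0.02 and -0.09 at 4 h, -0.15, -0.31, -0.24 and 0.28 at 20 min and -0.07, -0.08 and -0.06 on the same-RNA arrays. The same-RNA values lay within the range of both other groups, and the difference at 4 h was 0.07 (95% interval -0.27 to 0.41). Slc6a17, a carrier of synaptic vesicles, had ratios of 0.01, -0.53, 0.13, -0.01 and -0.29 at 4 h, 0.22, 0.14, 0.12 and 0.38 at 20 min and -0.17, -0.45 and 0.00 on the same-RNA arrays. All 4 arrays at 20 min lay above all 3 same-RNA arrays, which held for 3.57% of all features, with a difference of 0.42 ± 0.16 (SE; limma adjusted p = 0.801). Slc6a15, a carrier of branched-chain amino acids known from brain, had ratios of 0.01, -0.01, -0.08, -0.10 and 0.30 at 4 h, -0.30, -0.03, 0.05 and 0.21 at 20 min and 0.95, 0.19 and -0.14 on the same-RNA arrays. Its difference of -0.31 at 4 h rested on 1HG and was 0.00 without it. Slc6a18, known from the renal brush border, differed by -0.02 at 4 h and -0.21 at 20 min.

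Cystine and cationic amino acids enter through the pair of Slc3a1, a heavy chain, and Slc7a9, its light chain. Slc3a1 had ratios of 0.50, 0.01, -0.13, 0.05 and 0.94 at 4 h, 0.00, -0.08, -0.11 and 0.13 at 20 min and 0.09, 0.00 and -0.15 on the same-RNA arrays. Arrays 1 and 5 stood above every 20 min and same-RNA array while the other 3 did not, and the difference at 4 h was 0.30 ± 0.21 (SE; limma adjusted p = 0.603), or 0.13 without 4 h replicate 5. Slc7a9 had ratios of -0.50, -0.995, -1.11, -0.22 and -0.64 at 4 h, -0.83, -0.76, -0.58 and -0.52 at 20 min and -0.27, -0.67 and -0.71 on the same-RNA arrays. It was negative on all 12 arrays, those with the same RNA in both channels included, and its difference of -0.14 at 4 h (95% interval -0.56 to 0.28) changed sign in some alternatives, among them quantile normalization and scaling to 1 spread.

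The basolateral light chain Slc7a7, which exports cationic amino acids in a pair with the heavy chain Slc3a2, had ratios of 0.05, -0.27, -0.29, -0.48 and -0.03 at 4 h, 0.01, -0.10, -0.18 and -0.02 at 20 min and -0.56, -0.20 and -0.07 on the same-RNA arrays. Its differences were 0.07 at 4 h (95% interval -0.24 to 0.38) and 0.20 at 20 min (-0.12 to 0.53). Without the same-RNA array 1HG they were -0.07 and 0.06. Slc7a5, the light chain for large neutral amino acids, differed by -0.15 at 4 h and 0.00 at 20 min. The cationic amino acid carriers Slc7a1, Slc7a2 and Slc7a3 differed by -0.14, 0.10 and 0.12 at 4 h. At 20 min these were 0.08, 0.19 and 0.18, the last being 0.10 without 3HG. Slc7a2 had the smallest p of the 7 genes at 20 min, with ratios of 0.02, 0.11, 0.32, 0.49 and 0.06 at 4 h, 0.16, 0.26, 0.40 and 0.37 at 20 min and 0.27, -0.01 and 0.06 on the same-RNA arrays. No gene of this class had an unadjusted p below 0.05 in any comparison.

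Glutamine and small neutral amino acids are carried by Slc38a1 and Slc38a2 (system A) and Slc38a3 (system N). Slc38a1 had the largest mean ratio of the 53 in each group of arrays, with values of 0.64, 1.61, 1.39, 1.35 and 1.65 at 4 h, 1.62, 2.71, 1.68 and 2.75 at 20 min and 1.32, 0.88 and 1.36 on the same-RNA arrays. Its mean of 2.19 ± 0.62 at 20 min (SD, n = 4) ranked 1 of the 4682 features as a signed value and 4 by size, yet the same-RNA arrays, whose channels held 1 RNA, averaged 1.19 ± 0.27 (n = 3). All 4 arrays at 20 min lay above all 3 same-RNA arrays, as in 3.57% of all features, by 1.00 ± 0.32 (SE; 2.00-fold; 95% interval 0.30 to 1.70; limma adjusted p = 0.801). At 4 h the difference was 0.14 (95% interval -0.52 to 0.81) and was negative in some alternatives, among them scaling to 1 spread. Between the times it was -0.86 ± 0.28 (SE; adjusted p = 0.206). Slc38a2 had ratios of 0.14, -0.04, 0.29, 0.62 and 0.00 at 4 h, 0.06, -0.05, 0.11 and 0.04 at 20 min and 0.44, 0.36 and -0.07 on the same-RNA arrays, with a difference at 4 h of -0.04 (95% interval -0.39 to 0.30). Slc38a3 had ratios of 0.04, -0.05, 0.13, -0.26 and -0.37 at 4 h, -0.35, 0.60, 0.02 and -0.85 at 20 min and 0.28, -0.12 and -0.03 on the same-RNA arrays. Its 20 min arrays spread widest of the 53 apart from Slc38a1, and the difference at 4 h was -0.15 (95% interval -0.71 to 0.42).

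Monocarboxylates such as lactate, pyruvate and butyrate are carried with protons by 4 measured members of the Slc16a family. Slc16a8, a lactate carrier known from the retinal pigment epithelium, had ratios of -0.19, -0.30, -0.36, 0.16 and -0.34 at 4 h, against 0.17, 0.43, 0.76 and 0.26 at 20 min. The same-RNA arrays gave 0.03, 0.03 and 0.23. All 5 arrays at 4 h lay below all 4 at 20 min, as in 3.12% of all features, although array 4 (0.16) lay next to the lowest 20 min array (0.17). The difference was -0.61 ± 0.14 (SE; 95% interval -0.92 to -0.30; limma adjusted p = 0.0935), the second smallest p of the 53 and rank 50 of all features. It passed in 1 of 19 alternatives, without 4 h replicate 4 (adjusted p = 0.042), and the adjusted p ran up to 0.23. Against the same-RNA arrays the parts of this difference were -0.30 at 4 h and 0.31 at 20 min. On array 6 the ratio of Slc16a8 was -0.09, of the same sign as the mean of arrays 1 to 5 (-0.20). Slc16a1, the carrier of lactate and short-chain fatty acids in gut epithelium, had ratios of 0.20, -0.38, -0.02, 0.00 and 0.31 at 4 h, 0.10, -0.16, -0.03 and -0.05 at 20 min and 0.15, -0.04 and 0.01 on the same-RNA arrays. Its differences were -0.02 at 4 h (95% interval -0.33 to 0.29) and -0.08 at 20 min (-0.40 to 0.25). Slc16a3, which exports lactate from glycolytic cells, and Slc16a7, a pyruvate carrier of high affinity, differed by -0.20 and 0.07 at 4 h and by 0.04 and 0.06 at 20 min. The 4 h value of Slc16a3 was -0.10 without 1HG.

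Organic ions are the substrates of 10 measured members of the Slc22a family, with a median difference of -0.03 at 4 h and 0.00 at 20 min. Slc22a5, the sodium-coupled carnitine carrier, had ratios of -0.49, -0.16, -0.39, -0.33 and -0.30 at 4 h, -0.24, -0.10, 0.03 and -0.24 at 20 min and -0.16, -0.09 and -0.50 on the same-RNA arrays. Of the 12 arrays, 20 min array 3 alone was above 0, and its difference at 4 h was -0.09 (95% interval -0.35 to 0.17; 0.01 with quantile normalization). Slc22a4, the carrier of ergothioneine, had ratios of 0.00, -0.79, -0.39, -0.62 and 0.01 at 4 h, -0.13, -0.09, 0.39 and 0.39 at 20 min and -0.09, 0.08 and 0.42 on the same-RNA arrays. The low values at 4 h were those of arrays 2, 3 and 4, and arrays 1 and 5 lay within the same-RNA range. Its differences were -0.50 ± 0.21 at 4 h (SE; limma adjusted p = 0.466), 0.00 at 20 min and -0.50 ± 0.20 between the times (adjusted p = 0.289). Slc22a25 had ratios of 0.05, 0.70, 0.33, 0.60 and 0.54 at 4 h, 1.06, 0.66, 1.15 and 0.75 at 20 min and 0.27, 0.28 and 0.51 on the same-RNA arrays. It was positive on all 12 arrays, with all 4 arrays at 20 min above all 3 same-RNA arrays (3.57% of all features). The difference was 0.55 ± 0.17 (SE; adjusted p = 0.801), the smallest p of the 53 at 20 min. Its difference at 4 h, 0.09, was negative in some alternatives, among them scaling to 1 spread.

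The other 7 members of that family had no unadjusted p below 0.05 in any comparison. At 4 h the organic cation carriers Slc22a2 and Slc22a3 differed by -0.05 and 0.26, the organic anion carriers Slc22a6, Slc22a7 and Slc22a8 by -0.02, 0.28 and 0.13, the urate carrier Slc22a12 by -0.10 and Slc22a23 by -0.33. At 20 min these were -0.02, 0.07, -0.10, 0.29, -0.11, 0.01 and -0.35, in the same order of genes. Without 1HG the values of Slc22a7 were 0.01 at 4 h and 0.02 at 20 min, and those of Slc22a23 -0.19 and -0.22. Before centring, the ratio of Slc22a7 was exactly 0 on 20 min arrays 1, 2 and 4. For Slc22a23 all 4 arrays at 20 min lay below all 3 same-RNA arrays, as in 3.44% of all features.

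Neurotransmitters, taurine and creatine are the substrates of the remaining 10 Slc6a members. Their difference from the same-RNA arrays was above 0 for 2 at 4 h (48.5% of all features) and 3 at 20 min (50.6%). Both counts subtract the same 3 arrays and are not independent, and the median differences were -0.13 and -0.06. The class was not tested as a whole. Slc6a2, the noradrenaline carrier of sympathetic nerve endings, had ratios of -1.19, -1.45, -1.04, -1.15 and -1.02 at 4 h, -1.61, -1.29, -1.18 and -0.58 at 20 min and -0.50, -0.43 and -0.74 on the same-RNA arrays. It was negative on all 12 arrays and on array 6 (-1.27), whose dyes are read as swapped. All 5 arrays at 4 h lay below all 3 same-RNA arrays, as in 3.4% of all features, by -0.61 ± 0.19 (SE; 95% interval -1.04 to -0.19; limma adjusted p = 0.35). At 20 min the difference was -0.61 ± 0.20 (SE; adjusted p = 0.801), and array 4 there overlapped the same-RNA arrays. Both of these values are set against the same 3 arrays and are not independent. Between the times the difference was 0.00 ± 0.18. The same-RNA arrays do not enter that difference, but they enter its SE through the shared fit.

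Slc6a3, the dopamine carrier, had ratios of -0.35, 0.09, -0.03, -0.08 and -0.29 at 4 h, -0.04, 0.08, 0.27 and -0.04 at 20 min and 0.02, 0.06 and 0.16 on the same-RNA arrays, with a difference between the times of -0.20 ± 0.11 (SE; limma adjusted p = 0.485). Slc6a4, the serotonin carrier, which enterocytes also use, differed by -0.35 at 4 h (95% interval -0.72 to 0.02) and -0.26 at 20 min, and by -0.21 and -0.12 without 1HG. For the taurine carrier Slc6a6 the differences were 0.14 at 4 h and 0.34 at 20 min, and -0.04 and 0.15 without the same-RNA array 3HF. For the creatine carrier Slc6a8 they were -0.06 and -0.18. The glycine carriers Slc6a5 and Slc6a9 differed by 0.12 and -0.22 at 4 h, the proline carrier Slc6a7 by -0.13, and the GABA carriers Slc6a11 and Slc6a13 by -0.14 and -0.08. At 20 min those 5 lay between -0.11 (Slc6a11) and 0.06 (Slc6a5).

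**Figure D3:**
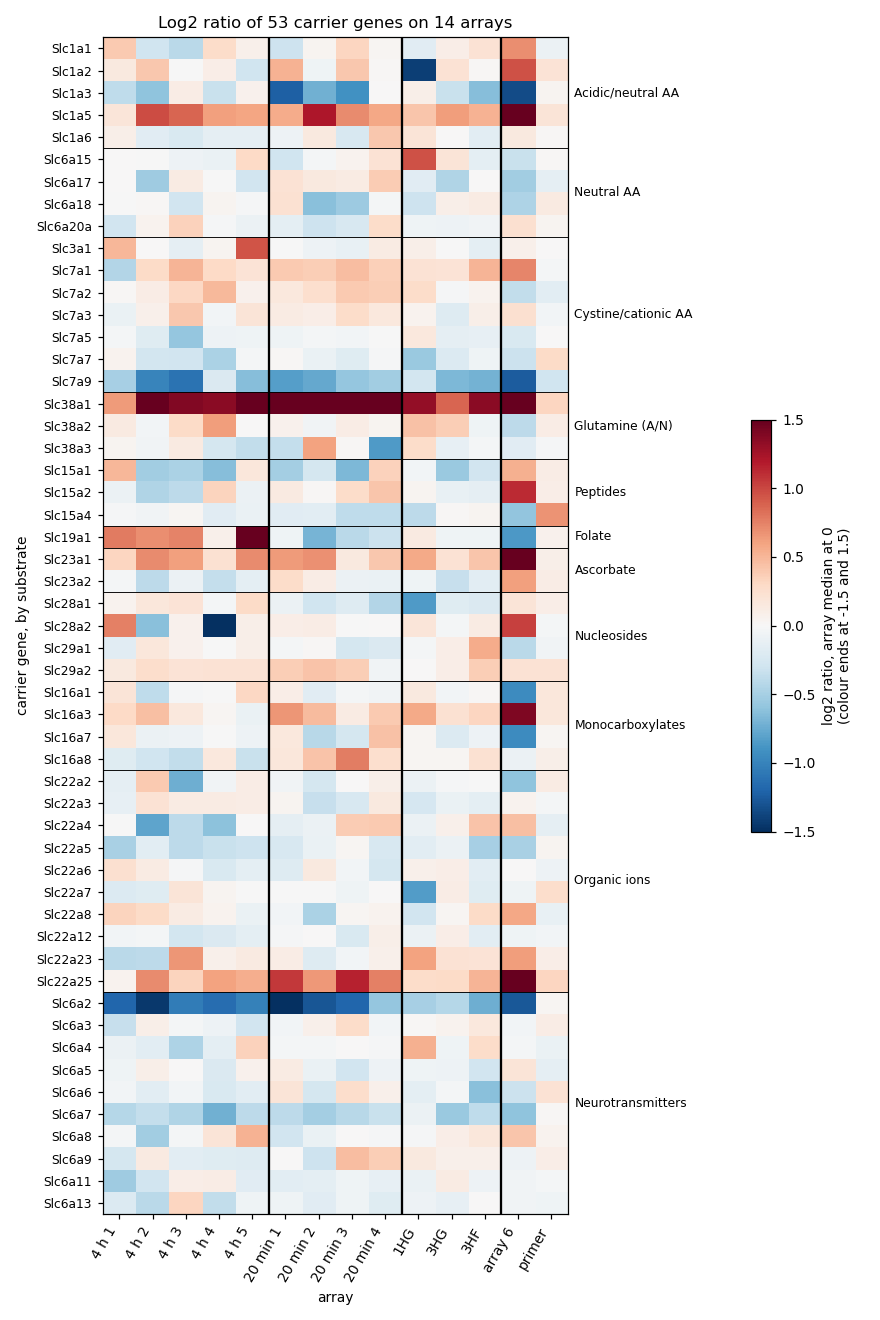
Log2 ratio (colour, array median at 0) of the 53 carrier genes (rows, grouped by substrate) on all 14 arrays (columns). Slc38a1, Slc1a5, Slc23a1 and Slc22a25 are positive and Slc6a2, Slc7a9 and Slc6a7 negative in all 12 columns of the 4 h, 20 min and same-RNA arrays.

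A set of 7 carriers kept 1 sign on all 12 arrays, 13.2% of the 53, as did 7.9% of all features. Slc38a1, Slc1a5, Slc23a1 and Slc22a25 were above 0 and Slc6a2, Slc7a9 and Slc6a7 below. Since 3 of those arrays held 1 RNA in both channels, a ratio away from 0 in these genes does not by itself show a difference between HF and HG. Set against 0, with no same-RNA arrays subtracted, limma would have called 9 carriers at 4 h (16.3% of all features) and 10 at 20 min (8.2%). Those at 4 h were the 7 above with Slc19a1 and Slc22a5, and those at 20 min the 7 above with Slc1a3, Slc16a3 and Slc16a8. Across the 53 genes, the mean ratio on the same-RNA arrays correlated with that at 4 h (Pearson r = 0.74, Spearman 0.54) and at 20 min (0.80 and 0.61). Without Slc38a1 and Slc6a2 the Pearson values were 0.56 and 0.65. With 1HG left out of the same-RNA mean, Pearson r over the 53 was 0.76 at 4 h and 0.83 at 20 min. Genes are not independent replicates, and all these points share probes and an array design.

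**Figure D4:**
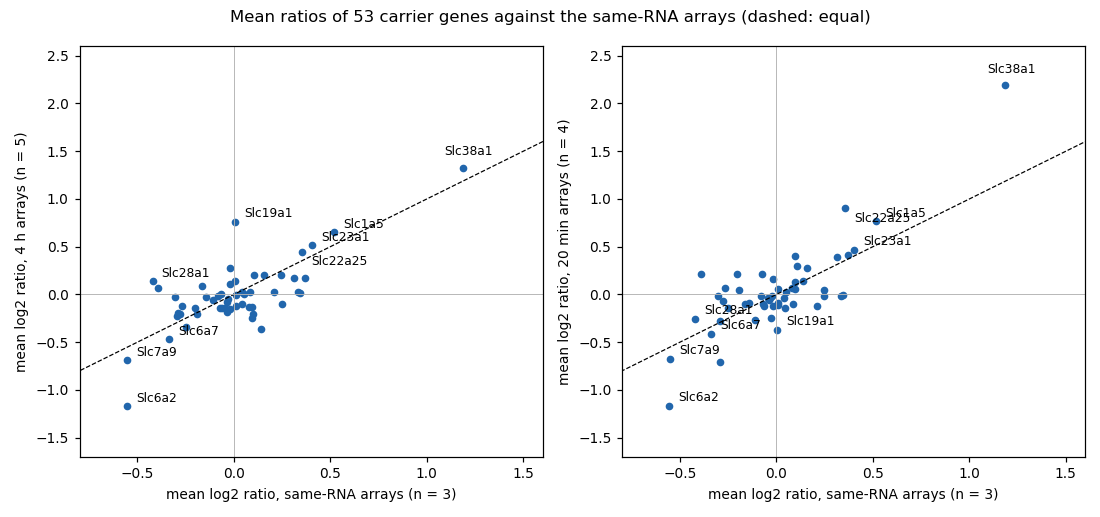
Mean log2 ratio of each of the 53 carrier genes on the same-RNA arrays (x axis) and on the 4 h or 20 min arrays (y axis), with a dashed line where both are equal. Slc38a1, Slc7a9 and Slc1a5 lie near the line at 4 h, and Slc19a1 lies near 0 on the x axis at both times.

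Array 6, the second array of pair 2, held a wider spread of carrier ratios (SD 0.92 over the 53) than any other array. The carriers ran from -1.34 to 3.28 on it, with Slc38a1 at 3.28 and Slc22a25 at 3.23. With the median of the same-RNA arrays subtracted, 20 of the 53 (37.7%) had the opposite sign to the mean of arrays 1 to 5, as did 46.6% of all features. Slc19a1 was one of the 20.

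Genes that work beside these carriers were listed in 6 groups, and 41 of them were on the array. None passed in limma in any comparison, in either direction, and 10, 4 and 8 had an unadjusted p below 0.05 at 4 h, at 20 min and between the times. These are 24.4%, 9.76% and 19.5% of the 41, beside 9.97%, 5.21% and 13.5% of all features. The 10 at 4 h include Bcat2 and Folh1, which had 2.48 and -2.94 on the same-RNA array 1HG. On 3HG and 3HF Bcat2 had 0.09 and 0.10, and Folh1 had 0.26 and -0.09. The part of 1HG in these counts was not tested. The median differences of the 41 were -0.04, -0.03 and -0.01. Slc3a2, the heavy chain that Slc7a5 and Slc7a7 need, had ratios of 0.68, 0.14, 0.62, 0.69 and 0.17 at 4 h, against -0.25, -0.01, -0.18 and 0.03 at 20 min and 0.08, -0.20 and 0.05 on the same-RNA arrays. Every 4 h array lay above every 20 min array (3.42% of all features), by 0.56 ± 0.14 (SE; limma adjusted p = 0.122), and above every same-RNA array (3.31%), by 0.48 ± 0.15 (adjusted p = 0.354), and array 6 gave -0.52. Bsg, the partner that brings Slc16a1 and Slc16a3 to the membrane, had ratios of -0.58, -0.34, -0.35, -0.37 and -0.24 at 4 h, against -0.05, -0.12, -0.08 and -0.10 at 20 min and -0.04, 0.07 and -0.25 on the same-RNA arrays. Its difference was -0.29 ± 0.09 between the times (SE; adjusted p = 0.203) and -0.30 ± 0.10 at 4 h (adjusted p = 0.37). Array 6 gave -0.06 for Bsg, of the same sign as arrays 1 to 5.

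Arg2, the mitochondrial arginase, had the smallest p of the 41 between the times. Its ratios were 0.54, 0.22, 0.12, 0.30 and 0.37 at 4 h, against -0.28, -0.08, -0.20 and -0.01 at 20 min and -0.08, 0.16 and 0.01 on the same-RNA arrays. The difference between the times was 0.45 ± 0.10 (SE; limma adjusted p = 0.0935). Slc5a6, the sodium-coupled carrier of biotin and pantothenate, had the smallest p at 4 h, with ratios of -0.55, -0.17, 0.11, -0.30 and 0.11 at 4 h, against 0.47, 0.20 and 0.44 on the same-RNA arrays. Every 4 h array lay below every same-RNA array, as in 3.4% of all features, by -0.53 ± 0.16 (SE; adjusted p = 0.312). At 20 min its ratios were 0.22, -0.19, -0.09 and 0.06, also lower than the same-RNA arrays on average (-0.37; adjusted p = 0.801), and 4 h differed from 20 min by -0.16 ± 0.15 (adjusted p = 0.703). At 20 min the smallest p were those of Hprt1 (-0.49) and Tk1 (-0.35), which salvage purines and thymidine, and of the ornithine enzyme Oat (0.45), all with an adjusted p of 0.801. Hprt1 had 0.81 on 1HG, against 0.31 and 0.14 on 3HG and 3HF. The 9 peptidases of the brush border and lumen had a median difference of 0.01 at 4 h and 0.03 at 20 min. Markers of cell types (9 lists, 50 genes measured) held 0 called genes in each comparison, with median differences of -0.06 at 4 h, -0.04 at 20 min and -0.02 between the times. The 7 enterocyte markers had a median of -0.14 at 4 h, -0.06 at 20 min and -0.33 between the times. Their directions were mixed, with 3 of the 7 above 0 at 4 h (48.5% of all features). There were 3 above 0 at 20 min (50.6%) and 2 between the times (48.0%). The part of these markers in the differences of the carriers was not tested.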

How the data were processed

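Arrays of 2 colours measured RNA of rat small intestine. The deposited table holds 1 log ratio per probe and array, made by the authors, and is read here as log2. The sources used here do not give its base, centring, direction or normalization. It has 4952 probes on 14 arrays with 0 missing values and 0 columns of no sample. It has no intensities, so dim probes cannot be set apart. Whether a deposited ratio of exactly 0 was measured or filled in is not known. Probe sequences were not analysed here, so values of close paralogs are uncertain. The platform annotation gave 1 symbol to 4426 probes, several to 2 and none to 524.

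Each array was centred on its median and probes of a symbol were averaged, giving 4682 features. limma 3.58.1 (R 4.3.3) fitted 12 arrays in 3 groups, with 9 residual and 2.84 prior degrees of freedom. p-values were Benjamini-Hochberg adjusted over all features at 0.05, and intervals are 95%. Array 6 and the primer array stayed out. The number of arrays limits the precision. The code was tested on simulated data. Alternatives covered centring, scaling, quantile normalization, array weights, moderation, the groups fitted, array 6, the pair number and each array left out.

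Values on every array are given for 29 carriers: those on a list of enterocyte carriers (14 of 20 measured) and the smallest p-value of each substrate class in each comparison. Of the related genes, the 3 smallest p-values of each comparison are named. The genes and lists were chosen with earlier results of these data known. The 20 min arrays were compared with same-RNA arrays of 4 h RNA.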

Additional observations from a re-analysis of the deposited data

Results flagged for a closer look

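On array 6, which entered no test, 5 carriers lay more than 1 beyond the range of the same-RNA arrays. Slc38a1 had a log2 ratio of 3.28 there and Slc22a25 one of 3.23. Slc23a1 had 1.73, Slc1a5 1.71 and Slc15a2 1.12. No carrier lay that far out on the primer array. The SD over all probes was 0.82 on array 6, where 226 of the 4952 probes lay beyond 2 before centring. The part of this spread in these values was not tested. How many of all features lay as far out was not counted, so the 5 are not read as a result about carriers.

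Slc19a1 lay above 0 on all arrays at 4 h and below 0 on all at 20 min. That difference was tested, at 1.13 with a limma adjusted p of 0.057.

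In a Dixon test the gap between an end value and its neighbour is set against the range of the group. For normally distributed values chance flags about 1 in 20 groups. A single array stood apart in this way in 7 of 106 groups of 4 or 5 arrays, near that share. At 4 h these were Slc7a5 on array 3 (-0.57), Slc6a7 on array 4 (-0.72), Slc6a9 on array 2 (0.14), Slc6a15 on array 5 (0.30) and Slc6a18 on array 3 (-0.29). At 20 min they were Slc29a2 on array 4 (-0.0472) and Slc22a7 on array 3 (-0.0618). For Slc22a7 the ratio before centring was exactly 0 on 20 min arrays 1, 2 and 4. Array 3 therefore stood apart from equal values, for which the chance rate does not hold. The share of such groups over all features was not counted, so the 7 are not read as a result about carriers.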

How the results depend on the processing

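No carrier passed at 4 h or 20 min against the same-RNA arrays in any alternative that subtracts those arrays. Against 0, 9 passed at 4 h and 10 at 20 min. Between the times 1 passed (Slc19a1) in a fit of the groups alone, with array weights, and with trended and robust moderation, and 0 to 2 with each array left out. Over all features, the count at 4 h (3) was 0 with array 6 averaged in as deposited, 763 against 0 and 2 to 5 with an array left out. At 20 min (2) it was 0 with arrays scaled to 1 spread, with the groups alone and with array 6 either as deposited or with its sign turned, 384 against 0 and 0 to 4 with an array left out. Between the times (28) it was 16 with arrays scaled to 1 spread, 0 and 18 with array 6 as deposited or turned, and 4 to 29 with an array left out. Fits without an array hold fewer arrays, and the cause was not tested for the others. Differences that did not pass changed sign against 0 in 18 of the 53 carriers at 4 h and 15 at 20 min. In each other setting 0 to 11 changed sign, up to a size of 0.46 (Slc1a2 at 4 h, without 1HG).

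With the pair number as a replicate block, 17 features and 0 carriers passed between the times. Taken as deviations from their group means, arrays of the same number correlated at -0.07 to 0.16. Of these, 1 of 4 correlated best with its own number, so the number is not taken to pair them. Those values do not describe the likeness of the group means. Over the 53 carriers the 4 h and 20 min means correlated at 0.76 (Pearson) and 0.40 (Spearman). Without Slc38a1 and Slc6a2, which were also far from 0 on the same-RNA arrays, these were 0.51 and 0.33.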
